A study of Mus musculus with 18 samples.

Results

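AP-1 is a family of transcription factors built as dimers of Fos and Jun proteins. The family described here comprised 6 genes, Fos, Fosb and Fosl1 on the Fos side and Jun, Junb and Jund on the Jun side, chosen by the gene symbol of their probes on the array. Each gene had 1 of the 25697 probes. A probe was tested when its detection p-value was under 0.01 on at least 2 of the 17 arrays used, and 5 of the 6 genes were among the 12991 probes that passed. Fosl1 did not pass. Fosb passed only through arrays of neurons given HCA, so that its place among the tested genes already depended on being higher there.

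The RNA came from cultured mouse neurons in 6 groups with 3 arrays each. The groups were untreated neurons, neurons with 0.1 µM or 1 µM adaptaquin, which inhibits HIF prolyl hydroxylases, and the same 3 conditions with homocysteic acid (HCA), a glutamate analogue that blocks cystine uptake and so lowers glutathione. The labels give neither the brain region nor the length of exposure, and they do not say whether replicates were separate cultures, so that the p-values reflect spread among these arrays only, possibly of technical origin. The third HCA array without adaptaquin is titled an outlier and was left out, leaving 2 arrays in that group, 8 with HCA and 9 without.

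Fos proteins cannot pair with themselves and bind DNA only with a partner such as Jun, whereas Jun proteins also form dimers of their own. The dimers bind the TRE, an element first described in genes induced by phorbol ester. Fos, Fosb and Junb are immediate early genes, which neurons transcribe within minutes of calcium entry or growth factor signalling through CREB and serum response factor. Jun is phosphorylated by the JNK kinases and is known for its part in the death of injured or deprived neurons. Jund is present in most cells at a steadier level.

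Stretches before the start of 4 genes are printed because the HCA response differed most among them, Fos and Junb having passed the test, Fosb having been detected only with HCA, and Jun not having passed. They are the 250 bases upstream of the start annotated by RefSeq on GRCm38.p6, 5′ to 3′ on the strand of the gene. Fos lies at chr12:85473640-85473889 (plus strand), Fosb at chr7:19310046-19310295 (minus strand), Junb at chr8:84978749-84978998 (minus strand) and Jun at chr4:95052223-95052472 (minus strand). Capitals mark the letters TGACG, the core of the cAMP response element (CRE) that CREB binds, and in Fosb also the Egr motif GCGGGGGCG. Jund, which also passed the test in the average, is not printed, and its stretch held neither motif.
Fos: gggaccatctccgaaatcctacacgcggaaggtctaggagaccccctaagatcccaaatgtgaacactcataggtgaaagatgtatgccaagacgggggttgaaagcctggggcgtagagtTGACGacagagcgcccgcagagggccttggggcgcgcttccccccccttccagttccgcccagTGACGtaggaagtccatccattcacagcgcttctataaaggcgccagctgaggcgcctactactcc
Fosb: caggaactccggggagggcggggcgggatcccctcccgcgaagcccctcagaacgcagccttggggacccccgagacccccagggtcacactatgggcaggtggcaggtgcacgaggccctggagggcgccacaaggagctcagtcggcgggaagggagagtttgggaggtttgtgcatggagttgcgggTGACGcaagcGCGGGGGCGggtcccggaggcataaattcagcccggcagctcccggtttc
Junb: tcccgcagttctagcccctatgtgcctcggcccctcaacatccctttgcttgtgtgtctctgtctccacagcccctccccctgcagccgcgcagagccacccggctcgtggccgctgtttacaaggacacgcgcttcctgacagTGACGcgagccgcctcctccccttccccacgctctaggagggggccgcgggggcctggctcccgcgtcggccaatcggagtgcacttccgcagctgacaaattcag
Jun: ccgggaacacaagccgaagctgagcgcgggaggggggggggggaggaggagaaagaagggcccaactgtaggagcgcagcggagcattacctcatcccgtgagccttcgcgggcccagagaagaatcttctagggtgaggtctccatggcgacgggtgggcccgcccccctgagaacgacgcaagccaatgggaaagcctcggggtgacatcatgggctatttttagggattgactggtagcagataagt

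Of the 6 genes, 5 had an entry in the promoter table, and Fosl1 was named only. The motifs were searched on both strands in the 32851 windows of that table. TGACG, which is also contained in the full CRE, occurred in 17.8% of all windows. It was found 2 times before Fos, at positions -129 and -66 counted from the start, and 1 time each before Fosb (-60) and Junb (-106). It was not found in the windows of Jun and Jund. The Egr motif, searched as GCGTGGGCG or GCGGGGGCG, was in 3.06% of windows and lay at -50 before Fosb. The TRE, written TGANTCA (6.75% of windows), the full CRE TGACGTCA (1.55%), the ATF4 response element TGATGNAA (3.45%) and the CArG box bound by serum response factor (1.47%) were found in none of the 5 windows. A match is a string of letters and not a measured binding site, and the absence of a match concerns these windows only.

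The upper quartile of probe intensity was 333 to 563 on the 17 arrays, and 42.8% to 47.6% of probes were detected. Neuronal markers were plainly present, 10 of 12 passing the filter, among them Map2, Rbfox3, Stmn2 and Dcx, and 0 of the 10 changed with HCA averaged over the doses. With the replicate number as a block 1 of them rose, Syt1 (0.23, adjusted p = 0.071, blocked 0.027). Markers of other cell types were measured too. Over all 8922 genes, 445 (4.99%) rose and 488 (5.47%) fell in that comparison. Of 8 astrocyte markers tested, 5 fell with HCA (median -0.42 on the log2 scale), as did 3 of 5 progenitor markers (median -0.31) and 2 of 5 oligodendrocyte markers. Of the GABAergic markers, 1 of 5 rose (Gad1), as did 1 of 4 vessel and fibroblast markers (Dcn), and 0 of 6 microglial markers changed. The microglial genes Itgam and P2ry12, the myelin genes Mog and Mag and the endothelial genes Pecam1 and Cdh5 did not pass the detection filter. In bulk RNA, fewer cells of a type and less RNA per cell cannot be told apart.

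Fos, the founding member of the family, was the gene that HCA raised most among the 6. Its levels below are normalized, background-corrected log2 intensities. Without HCA they were 7.30, 7.26 and 6.54 on the untreated arrays, 7.03, 7.31 and 6.69 with 0.1 µM adaptaquin and 7.32, 7.06 and 6.67 with 1 µM. With HCA they were 9.40 and 10.13 without adaptaquin, 9.92, 10.31 and 10.13 with 0.1 µM and 9.41, 9.75 and 9.93 with 1 µM. Every HCA array lay above every array without HCA, the lowest HCA value being 9.40 and the highest without it 7.32.

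HCA raised Fos by 2.73 ± 0.28 (standard error) without adaptaquin, by 3.11 ± 0.25 at 0.1 µM and by 2.68 ± 0.25 at 1 µM. These are log2 changes, with limma adjusted p of 1.21e-04, 8.12e-06 and 4.48e-05. Averaged over the 3 doses the rise was 2.84 ± 0.15, a 7.15-fold change with a 95% interval of 5.72 to 8.94 (adjusted p = 2.34e-08). Among 12991 probes, it ranked 3 by the size of the rise. Without the arrays numbered 2, which left 1 HCA array without adaptaquin, that first change was 2.48 and did not pass (adjusted p = 0.117). The averaged rise was 2.02 without background correction and 2.04 in the authors' deposited table of log2 values, which compress the changes of dim probes.

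Where Fos stood within the HCA groups could not be resolved. The group means were 10.12 ± 0.20 (SD, n = 3) with 0.1 µM adaptaquin, 9.76 ± 0.51 (n = 2) without it and 9.70 ± 0.26 (n = 3) with 1 µM, and neighbouring groups overlapped. Without HCA the means were 7.04 ± 0.43, 7.02 ± 0.33 and 7.01 ± 0.31 (n = 3 each), also overlapping.

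**Figure D1:**
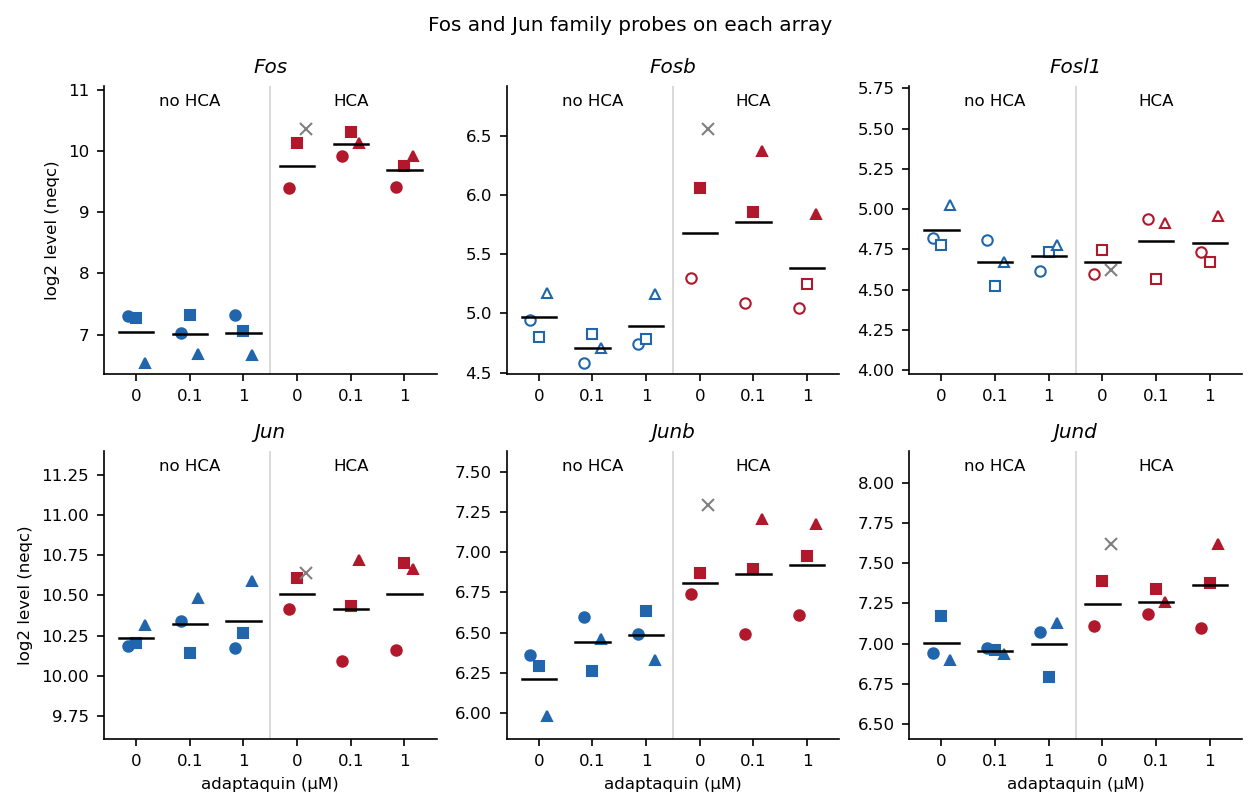
Normalized log2 level of the 6 genes on each array, by adaptaquin dose (µM), without HCA (blue) and with HCA (red). Circles, squares and triangles are replicate numbers 1, 2 and 3, filled where the probe was detected, bars are group means and grey crosses the array titled an outlier. Fos is separated between the HCA arrays (9.40 to 10.31) and the others (6.54 to 7.32), while Jun overlaps and Fosl1 was detected on 0 arrays.

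Fosb, which encodes a Fos protein whose truncated form builds up in chronically stimulated neurons, was near the limit of detection. It was detected on 4 of 8 HCA arrays and on 0 of 9 without HCA. Its levels without HCA were 4.94, 4.80 and 5.17 untreated, 4.59, 4.83 and 4.71 with 0.1 µM adaptaquin and 4.75, 4.78 and 5.17 with 1 µM. With HCA they were 5.30 and 6.06 without adaptaquin, 5.09, 5.86 and 6.37 at 0.1 µM and 5.05, 5.25 and 5.84 at 1 µM. Of the HCA arrays, 6 lay above the highest array without HCA, and the 2 that did not were those numbered 1 with adaptaquin.

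Because Fosb was not above background on any array without HCA, its fold was not measured. The mean of each HCA group was instead set against the dimmest detected signal, or the probe's own where that was higher. This ratio was 1.01 without adaptaquin and 1.13 at 0.1 µM, and under 1 at 1 µM and in the average. It is no strict lower bound and takes no account of spread. Fosb was detected on only 1 of 2 HCA arrays without adaptaquin and 2 of 3 at 0.1 µM. The fitted difference in the average, which carries the same limit, was 0.75 ± 0.17 on the log2 scale (limma adjusted p = 0.0121, and 0.0205 with no detection filter). At single doses Fosb did not pass, with fitted differences of 0.71 ± 0.32 (adjusted p = 0.438), 1.07 ± 0.29 (adjusted p = 0.0879) and 0.48 ± 0.29 (adjusted p = 0.606). With the replicate number as a block, the change at 0.1 µM passed (adjusted p = 0.00899), as it did without the array numbered 1 of that HCA group (1.41, adjusted p = 0.0193). The averaged difference did not pass without the HCA array numbered 2 (0.63, adjusted p = 0.0579) or without all arrays numbered 2 (0.61, adjusted p = 0.353). Its size was 0.22 without background correction and 0.41 with an offset of 50 in place of 16.

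Fosl1, which encodes Fra-1, a Fos protein without the transactivation domain of Fos, was detected on 0 of 17 arrays. Its detection p-values ranged from 0.117 to 0.614 and its levels from 4.52 to 5.02, a range that was shared by arrays with and without HCA. No change is given for it.

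Jun, the JNK substrate, was detected on every one of the 17 arrays, and its levels overlapped between HCA and no HCA. They were 10.18, 10.20 and 10.32 untreated, 10.34, 10.14 and 10.48 with 0.1 µM adaptaquin and 10.18, 10.27 and 10.59 with 1 µM. With HCA they were 10.41 and 10.61, then 10.09, 10.43 and 10.72 at 0.1 µM and 10.16, 10.70 and 10.66 at 1 µM. The lowest value of all belonged to an HCA array, the one numbered 1 at 0.1 µM, and 4 of 8 HCA arrays lay above the highest array without HCA. The averaged change was 0.18 ± 0.11, with a 95% interval of -0.05 to 0.40, and it did not pass (limma adjusted p = 0.337, blocked 0.0665). At the 3 doses the values were 0.28, 0.09 and 0.17, and none passed. The interval leaves out a rise of the averaged level above 1.32-fold.

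Junb, whose protein is a weaker activator than Jun on many promoters, rose moderately. On arrays without HCA it read 6.36, 6.29 and 5.98 untreated, 6.60, 6.26 and 6.46 at 0.1 µM and 6.49, 6.63 and 6.33 at 1 µM. On HCA arrays it read 6.74 and 6.87 without adaptaquin, 6.49, 6.90 and 7.21 at 0.1 µM and 6.61, 6.98 and 7.18 at 1 µM. The HCA and untreated arrays without adaptaquin did not overlap, which was also so for Fos, Fosb and Jun. These are only 2 and 3 arrays, and the share of all probes without overlap was not counted, so that nothing is drawn from it. Jun was among these genes although it did not pass, and Fosb was not detected on the untreated arrays. Over all doses, 6 of 8 HCA arrays exceeded every array without HCA. Averaged over the doses Junb rose by 0.48 ± 0.11, or 1.40-fold (limma adjusted p = 0.0111). The values at single doses, 0.59, 0.42 and 0.44, did not pass (adjusted p = 0.257, 0.359 and 0.377). The averaged rise did not pass without all arrays numbered 2 (0.46, adjusted p = 0.292) or all numbered 3 (0.33, adjusted p = 0.113), and it was 0.21 without background correction.

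Jund, the Jun protein that persists in resting cells, rose least among the genes that passed. Its levels without HCA were 6.94, 7.17 and 6.90 untreated, 6.97, 6.96 and 6.93 at 0.1 µM adaptaquin and 7.07, 6.80 and 7.13 at 1 µM. With HCA they were 7.11 and 7.39, then 7.18, 7.34 and 7.26 at 0.1 µM and 7.10, 7.38 and 7.62 at 1 µM. The ranges overlapped, with 6 of 8 HCA arrays above the highest of the others. The averaged rise was 0.30 ± 0.08, or 1.24-fold (limma adjusted p = 0.0279), and the single doses gave 0.24, 0.31 and 0.36 without passing. This call was the least stable of the family. It was lost in 9 of 30 alternative fits, namely with median scaling (0.31, adjusted p = 0.103), without all arrays numbered 1, 2 or 3 (0.41, 0.24 and 0.26, adjusted p = 0.0673, 0.395 and 0.144), and without any of 5 single arrays. Those were the untreated arrays numbered 1 and 3, and the arrays numbered 2 of the 1 µM adaptaquin, HCA and HCA with 0.1 µM groups (values of 0.26 to 0.29, adjusted p of 0.0501 to 0.11). Its size was 0.16 without background correction.

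Among the 4 genes detected both with and without HCA, 1 was called at each dose, Fos each time, and 3 in the average. Fosb also passed in the average but is not counted here, since it entered the tested set through the HCA arrays. Over all probes, 0.562% rose without adaptaquin, 0.916% at 0.1 µM, 0.677% at 1 µM and 4.73% in the average. The median change of the 4 genes in the average was 0.39, against -0.01 for all probes, and 0 of the 4 fell.

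**Figure D2:**
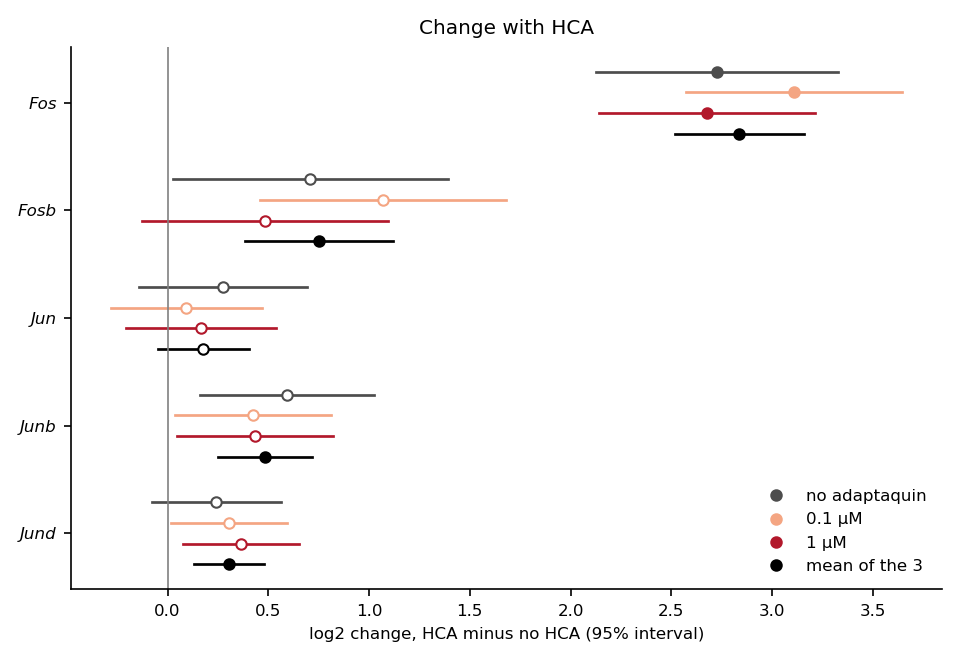
Log2 change with HCA for the 5 tested genes at each adaptaquin dose and averaged over the 3 doses, with 95% intervals from the limma fit. Filled points passed at an adjusted p under 0.05. Fos passed at every dose (2.68 to 3.11), and Fosb, Junb and Jund passed in the average only (0.30 to 0.75). The Fosb values are fitted differences of a probe not detected without HCA.

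The size of the HCA change differed between members. Exact two-sided permutations of the HCA labels were added after the data had been seen and compared the averaged changes in the 6 pairs among Fos, Jun, Junb and Jund. Fosb was left out, since its probe was below background without HCA. With labels permuted within each dose (4000 arrangements), Fos exceeded each of the others by 2.35 to 2.66 on the log2 scale (exact p = 0.00025, the smallest these permutations can give, adjusted p = 5e-04 over the 6 pairs). Junb exceeded Jun by 0.31 (exact permutation, adjusted p = 0.00412). This gap was much smaller without background correction, where the averaged changes were 0.21 for Junb and 0.16 for Jun. In the authors' deposited table they were 0.22 and 0.16. The permutation was not repeated on those values. The differences between Junb and Jund (0.18) and between Jund and Jun (0.13) did not pass (exact permutation, adjusted p = 0.13 and 0.191). For single genes the same permutation gave exact p of 0.00025 for Fos, 0.00125 for Junb, 0.002 for Jund and 0.097 for Jun. These permutations ignore the replicate numbers. Swapping labels only within the 8 pairs of arrays of the same dose and number (256 arrangements, smallest possible p 0.00781) gave an adjusted exact p of 0.0156 for Fos against each of the others and 0.0234 for Junb against Jun. Single genes then had exact permutation p of 0.00781 for Fos and Jund, 0.0156 for Junb and 0.0625 for Jun.

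Arrays of the same replicate number deviated together, so that each HCA array can be set against the array of its own number and dose. In these 8 pairs Fos was higher with HCA in 8, by 2.09 to 3.44 on the log2 scale. Jund was higher in 8 (0.03 to 0.58), Junb in 7 (-0.11 to 0.84) and Jun in 6 (-0.25 to 0.43). Fosb read higher in 8 (0.30 to 1.67), but it was detected on 4 of 8 HCA arrays and on 0 of 9 others. Its differences therefore involve readings below background and are not measured changes. The mean difference varied with the number. For Fos it was 2.36 in the 3 pairs numbered 1, 2.85 in the 3 numbered 2 and 3.35 in the 2 numbered 3. Number 3 lacks the pair without adaptaquin, so its means cover fewer doses. For Junb the same means were 0.13, 0.52 and 0.79. For Fosb they were 0.39, 0.92 and 1.17, with the limit given above. What the number stands for is not given in the labels.

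**Figure D3:**
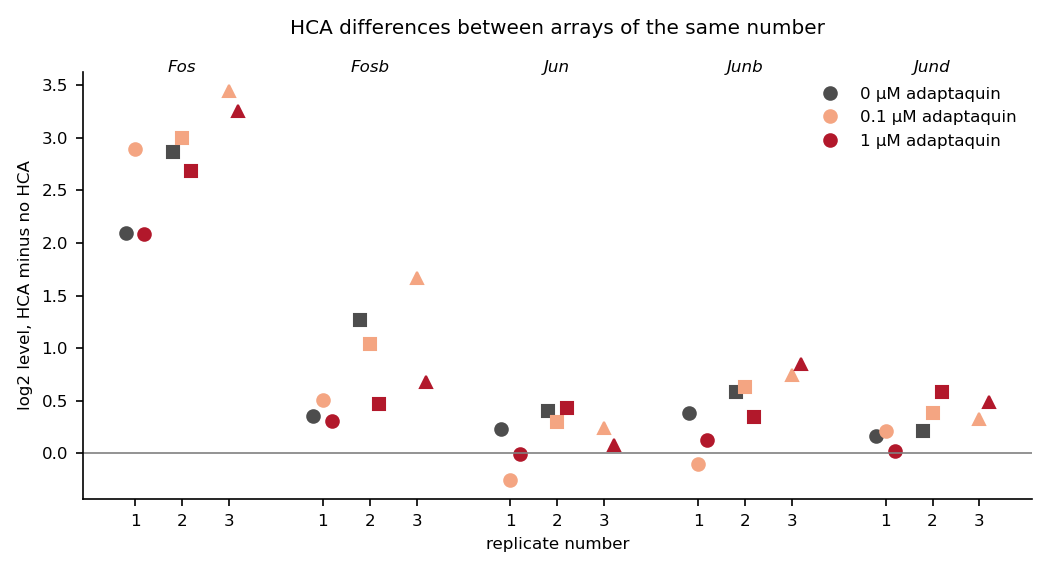
Difference in log2 level between the HCA array and the array without HCA of the same replicate number and dose, for the 5 tested genes. Each point is 1 of 8 pairs, shaped by replicate number and coloured by adaptaquin dose. All Fos, Fosb and Jund points lie above 0, and pairs numbered 1 lie lowest on average for all 5 genes. The Fosb points are differences from readings not detected without HCA.

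Adaptaquin was compared with no adaptaquin and the doses with each other, without and with HCA. The members did not change detectably. Of 30 values, 6 comparisons of 5 genes, 0 were called by limma, with or without the replicate block, and 0 had an unadjusted p under 0.05 (lowest p 0.114, lowest adjusted p = 0.999). The values ran from -0.42 to 0.36, and the 95% intervals stayed within -1.01 to 0.96. They include Fosb, which was detected on 0 of 9 arrays without HCA and cannot show a change there. Over all probes, 0.115% were called for 1 µM against none and for 1 µM against 0.1 µM, both without HCA, and 0% in the other adaptaquin comparisons. The value farthest from 0 belonged to Fos, -0.42 for 1 µM against 0.1 µM with HCA (95% interval -0.96 to 0.11).

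For Fos, 1 µM adaptaquin gave -0.02 ± 0.25 without HCA and -0.06 ± 0.28 with HCA, with a 95% interval of -0.66 to 0.53 in the latter. These intervals do not show that adaptaquin left Fos unaltered, but they hold no fall of Fos as large as the HCA rise. For Jun, the corresponding values were 0.11 ± 0.17 and 0.00 ± 0.20. For Junb they were 0.27 ± 0.18 and 0.12 ± 0.20. For Fosb they were -0.07 ± 0.29 and -0.30 ± 0.32, the first being a difference between readings below background.

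Whether adaptaquin altered the response to HCA was tested as the difference between HCA changes. Of 15 values, 3 interactions of 5 genes, 0 were called (background 0% of probes), and 0 had an unadjusted p under 0.05 (lowest p 0.169). They ran from -0.59 to 0.38, with 95% intervals within -1.45 to 1.28. The extremes were Fosb at 1 µM against 0.1 µM (-0.59 ± 0.40) and Fos at 0.1 µM against none (0.38 ± 0.38). The Fosb value rests on readings below background without HCA. The interaction of Fos with 1 µM adaptaquin was -0.05, with a 95% interval of -0.85 to 0.76.

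**Figure D4:**
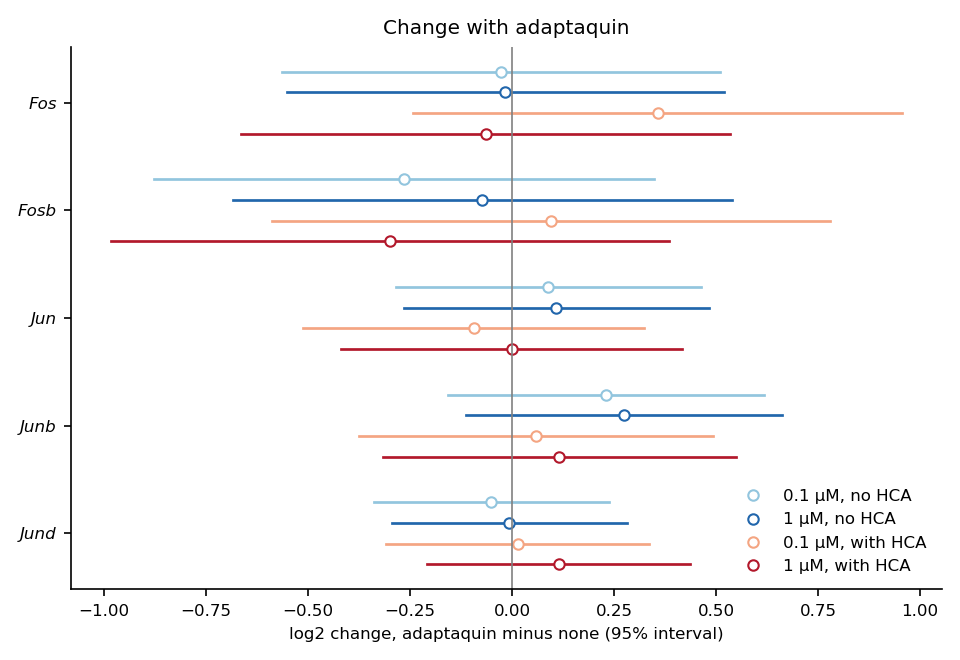
Log2 change with 0.1 or 1 µM adaptaquin against none for the 5 tested genes, without HCA (blue) and with HCA (orange and red), with 95% intervals from the limma fit. All 20 points are open because none passed at an adjusted p under 0.05, and every interval includes 0. The Fosb values without HCA are differences between readings below detection.

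Other dimer partners of Fos and Jun were examined as a list of 13 genes, of which 10 symbols were on the array and 7 were tested. In the averaged HCA comparison 3 rose and 1 fell, with a median of 0.15, against 4.99% and 5.47% of all genes and a median of -0.01. Atf3, which is among the 3, and Maff were tested only because HCA arrays detected them. The count of risers therefore rests in part on the detection filter. Jdp2, a Jun dimerization protein that represses AP-1 sites, rose by 1.26 ± 0.12 (limma adjusted p = 1.08e-05). Atf3, a stress-induced partner of Jun, was at least 1.39-fold higher, being detected on 8 of 8 HCA arrays and 0 of 9 others (means 6.12 and 5.09). Its limma adjusted p of 3.2e-04 is not independent of that filter. Mafg, a small Maf protein, rose by 0.28. Batf3, a partner of Jun best known from dendritic cells, was lower with HCA and was detected on 1 of 8 HCA arrays against 7 of 9 (limma adjusted p = 0.0178). The bound on its fold, 1.34, is not strict, since the higher side includes arrays without detection. Atf2 (0.00) did not pass.

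Among 16 tested kinases upstream of Jun and Fos, 2 rose (12.5%) and 0 fell, with a median of -0.03. Over all genes 4.99% rose and 5.47% fell. With the replicate block 1 of the 16 fell, Map2k3 (-0.13, limma adjusted p = 0.324, blocked 0.029), where 10.5% of all genes fell. The risers were Mapk8, which encodes JNK1 (0.20 ± 0.05, adjusted p = 0.03), and Rps6ka3, which encodes the ERK-activated kinase RSK2 (0.41 ± 0.08, adjusted p = 0.00344). The other JNK genes Mapk9 (-0.03) and Mapk10 (0.08) and the p38 gene Mapk14 (0.11) did not pass. Among 10 tested regulators that act at the Fos promoter, 1 rose (10%, against 4.99% of all genes) and 0 fell, with a median of 0.03. This was Crem, whose short forms repress CRE-driven genes (0.84 ± 0.11, adjusted p = 1.58e-04). Creb1 (0.16) and Srf (0.00) did not pass.

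Of 11 tested genes for degradation of Jun and Fos or dephosphorylation of their kinases, 4 rose and 0 fell, with a median of 0.03. The share that rose was 36.4%, against 4.99% of all genes. All 4 encode dual-specificity phosphatases that act on MAP kinases, Dusp4 (0.77 ± 0.11), Dusp1 (0.36 ± 0.07), Dusp8 (0.35 ± 0.10) and Dusp16 (0.24 ± 0.07). The other Dusp genes tested did not pass, namely Dusp6 (0.01), Dusp2 (-0.11) and Dusp10 (-0.18, detected on 2 of 17 arrays). Dusp1 is counted again among the other immediate early genes below. Fbxw7 (-0.16) and Cops5 (-0.10), which act in turnover of the Jun protein, did not pass.

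Of 18 tested genes reported elsewhere as AP-1 targets, 1 rose and 1 fell in the average, with a median of -0.13. A share of 5.56% rising is near the 4.99% of all genes. Bbc3, which encodes the death protein Puma, rose by 0.28 ± 0.08 (limma adjusted p = 0.0311), and Vim, an intermediate filament gene of glia and progenitors, fell by 0.46 on the log2 scale (adjusted p = 0.012). With the replicate block 4 rose and 3 fell, where 8.61% of all genes rose and 10.5% fell. Hrk, a death gene that Jun is known to raise in neurons deprived of growth factor, stood at 0.53 ± 0.16, just short of the threshold (adjusted p = 0.0509, blocked 8.94e-04). Ccnd1, a cyclin gene, stood at -0.23 (adjusted p = 0.434, blocked 0.00785). Mmp9 (-0.09), Plaur (-0.12) and Cd44 (-0.20) did not pass in either fit.

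Of 29 tested other immediate early genes, 10 rose and 0 fell, with a median of 0.25, and 14 rose with the replicate block. Among all genes 4.99% rose, and 8.61% with the block. Npas4, an activity-induced transcription factor, was detected on 8 of 8 HCA arrays and 2 of 9 others, with means of 8.07 and 5.18. The bound on the Npas4 fold, 6.35, is not strict, since the lower side keeps arrays without detection at their own level. Bdnf, a neurotrophin, rose by 2.13 ± 0.13, and the secreted peptide precursor Vgf by 1.89 ± 0.16. Per1, a clock gene with a CRE, rose by 0.76 ± 0.08, and the nuclear receptor gene Nr4a2 by 0.72 ± 0.15. Its relative Nr4a3 was detected on 7 of 8 HCA arrays and 0 of 9 others, and so tested only through the HCA arrays. It is among the 10, so that count rests in part on the detection filter. The bound on its fold, 1.18, is not strict, since its HCA mean includes the array without detection. Egr1 (0.01 ± 0.31), Egr2 (0.19 ± 0.27), Egr3 (0.03 ± 0.15) and Arc (-0.08 ± 0.11), which are induced with Fos by synaptic activity in many settings, did not pass. Egr3 was detected on 2 of 17 arrays and Arc on 6, so their values say little about change near background. In these 6 lists, 0 genes were called for 1 µM adaptaquin without HCA. Of all 8922 genes only 12 rose and 0 fell there, so this count says little about the lists.

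**Figure D5:**
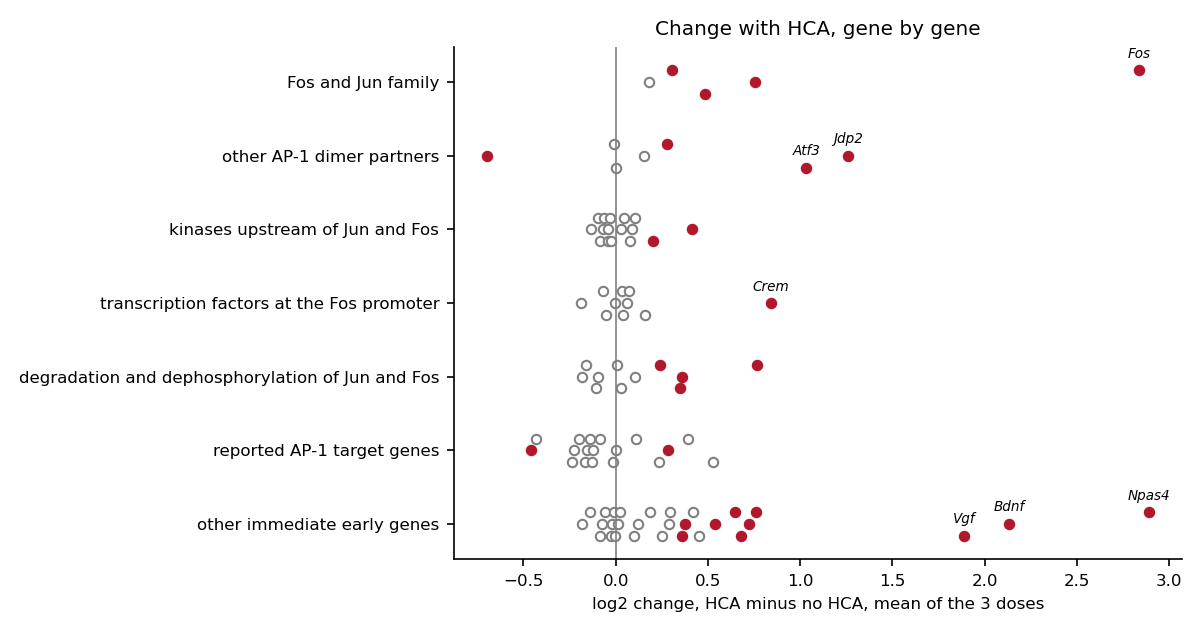
Log2 change with HCA averaged over the 3 doses for the 5 tested family members and for each tested gene of the 6 lists, 1 point a gene. Red points passed at an adjusted p under 0.05, and vertical offsets within a list only separate the points. Fos (2.84) and Npas4 (2.89) lie far to the right, and the kinases cluster near 0. Values of genes that were not detected in a whole group, such as Npas4, Atf3 and Batf3, are fitted values and not bounds.

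The genes whose group means, relative to untreated, ran closest to those of Fos were Npas4 (root mean square difference 0.23 on the log2 scale over 5 group means), the cationic amino acid transporter gene Slc7a3 (0.25), the glutathione-degrading enzyme gene Chac1 (0.50), the secreted factor gene Stc2 (0.60) and Bdnf (0.61), out of 8921 genes compared. Of these 5, 2 remained among the closest without background correction or in the authors' deposited table, namely Slc7a3 and Chac1. Npas4, Stc2 and Bdnf dropped out there. With an offset of 50, 3 remained, and 4 did with the titled outlier included. Npas4 was detected on 2 of 9 arrays without HCA and Bdnf on 6 of 9. Stc2 was detected on 11 arrays in all, with an untreated mean of 5.39. The distances of Npas4, Stc2 and Bdnf therefore rest partly on readings below detection. The 5 genes closest to Fosb were Slc12a8, Arnt, which encodes the partner of HIF alpha subunits, Gpr153, the immediate early gene Ier3 and the pseudokinase gene Trib3. No distances are given for them, since Fosb, Slc12a8 and Trib3 were each detected on 0 of 9 arrays without HCA, and this likeness lies partly at the detection floor. The other tested members had group means that spanned less than 1, and no neighbours were sought for them.

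Markers of glia and progenitors moved with HCA beside Fos. The summed level of the 8 astrocyte markers was 9822 to 13352 on the untreated arrays, 10103 to 14114 with 0.1 µM adaptaquin and 9636 to 13080 with 1 µM. With HCA it was 9471 to 9784, then 8280 to 9713 and 7890 to 9892. Of these markers, Aqp4 (-0.49), Slc1a3 (-0.44), Aldh1l1 (-0.46), Aldoc (-0.40) and Fabp7 (-0.51) fell, while Gfap was detected on 3 of 17 arrays. The 5 progenitor markers summed to 3988 to 4560, 3999 to 5207 and 3832 to 4327 without HCA and to 3006 to 3997, 3389 to 3781 and 3084 to 3764 with it. The oligodendrocyte markers that fell were Olig1 (-0.54) and Cnp (-0.44). Other markers lay above 0, such as the astrocyte gene Gja1 (0.17, adjusted p = 0.438) and the myelin gene Mbp (0.18, adjusted p = 0.15, blocked 0.0412). The summed neuronal markers were 37607 to 44556 without HCA and 40292 to 45010 with it. The part of these shifts in the changes of the family was not tested.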

How the data were processed

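RNA of cultured mouse neurons was measured on 18 Illumina bead arrays. Per the labels, RNA was extracted with Trizol, cleaned with DNase I treatment and turned into biotinylated cRNA. The authors deposited probe intensity values for 18 arrays, not normalized between arrays, together with a detection p-value for each probe and array. Log2 values for 17 arrays stood in another table deposited by the authors and equalled quantile-normalized log2 intensities within 5e-09 and had a median of 7.37 on every array. The scanner software was not given in the sources used here.

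The neqc function of limma 3.58.1 (R 4.3.3) estimated the background of each array from its detection p-values, added an offset of 16, and put 18 arrays through quantile normalization and log2. A single symbol was paired with 23978 of 25697 probes and no symbol with 1719, and 23962 were matched to RefSeq by gene identifier, which changed 0 symbols. A linear model with 1 mean for each of 6 groups was fitted with limma to 12991 probes on 17 arrays (11 residual and 3.4 prior degrees of freedom). Tests were two-sided, with Benjamini-Hochberg adjustment over all probes within each of 13 contrasts and a threshold of 0.05. For lists, the brightest tested probe stood for each of 8922 genes. The script was tested on simulated data.

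Replicate numbers paired the arrays: deviations from the group means of same-numbered arrays in different groups correlated at 0.195 to 0.592 in 40 of 40 pairs, against -0.463 to 0.089 for different numbers, and 17 of 17 arrays correlated best with an array of their own number. Blocked values come from a fit with the number as a block. The members, the 6 gene lists and the markers were chosen with earlier results of these data known. Named list genes are up to 6 called members of each list by size in the averaged HCA comparison, and the neighbours of members whose group means span over 1. Other list genes given with values were named after their values were seen. Alternatives varied background correction, offset, normalization, detection filter, probe choice, variance prior, the outlier array, the block and single arrays. The number of arrays limits the precision.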

Additional observations from a re-analysis of the deposited data

Results flagged for a closer look

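The array of HCA without adaptaquin that is titled an outlier was outside the comparisons. On it, 5 members lay above the highest untreated array. Fos stood at 10.37 on the log2 scale against 7.30, Fosb at 6.56 against 5.17 and Jun at 10.64 against 10.32. Junb stood at 7.29 against 6.36 and Jund at 7.62 against 7.17. This array had an upper quartile of probe intensity of 241 and 40.9% of probes detected, below the range of the 17 arrays used. With it included, the averaged HCA changes were 2.91 for Fos, 0.85 for Fosb, 0.54 for Junb, 0.35 for Jund and 0.19 for Jun, and Jun did not pass (limma adjusted p = 0.272). The same-number difference at that dose was 3.83 for Fos.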

How the results depend on the processing

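Each member value was refitted in up to 30 alternatives. Of 1342 member values so obtained, 14 lost a call, 2 gained one and 0 called values changed sign. Among values that stayed uncalled, 28 moved by over 1 SD between arrays and 119 changed sign. Calls that were kept still varied in size, the averaged Fosb difference from 0.22 upward and the Junb rise from 0.21. The averaged rise of Fos passed in 30 of 30 alternatives (2.02 to 3.14), and that of Jun in 0 (0.06 to 0.29). Fosb, included in the counts that follow, was not tested where a probe had to be detected on every array of a group. With the replicate block, 2 members were called for HCA at 0.1 µM in place of 1, Fosb being added, and it changed no other member call. When arrays were left out, the number of members called ranged from 0 to 1 for HCA without adaptaquin, from 1 to 2 at 0.1 µM and from 1 to 4 in the average. It fell to 1 in the average without all arrays numbered 2 and to 2 without those numbered 3 or without the HCA array numbered 2. The exact permutation test, added after seeing the data, put Fos, Junb and Jund under an unadjusted exact p of 0.05. Fosb lay under it too, but this carries no weight because Fosb entered the tested set through the HCA arrays. Calls over all probes moved more widely. For HCA they were 88 without adaptaquin (54 with median scaling, 277 with the block), 164 at 0.1 µM (74 and 618), 126 at 1 µM (56 and 451) and 1276 in the average (547 and 2310). For 1 µM adaptaquin without HCA they were 15 (0 and 29), and for 1 against 0.1 µM 15 (0 and 28). With arrays left out, the HCA counts ranged from 9 to 82, 25 to 127, 17 to 141 and 161 to 1370, and the adaptaquin counts from 0 to 18 and 0 to 14. The causes of these shifts were not tested. Fosb and Fosl1 are limited by signal near background.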
